A study of Mus musculus with 12 samples.

Results

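The cells described here are CD8 T cells that carry mRNA of the granzymes Gzma or Gzmk and no Havcr2 mRNA. They came from islet-infiltrating T cells of female NOD mice, a strain that develops autoimmune diabetes spontaneously, taken at 12 weeks of age before overt diabetes. Live cells with a surface αβ T cell receptor were sorted and profiled by droplet CITE-seq, which counts mRNA and antibody tags in the same cell, and receptor chains were sequenced from the same droplets. There were 4 biological replicates, with 1 mRNA library, 1 receptor library and 1 antibody tag library each. No genotype, treatment or healthy control was compared. The labels do not state whether a replicate was 1 mouse or a pool, so p-values measure the spread between these 4 samples.

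A cell was a member when it had at least 500 UMIs (unique molecular identifiers, each standing for 1 captured molecule), at most 8% mitochondrial UMIs, fewer than 20 CD4 antibody counts, at least 2 UMIs of Cd8a and Cd8b1 together, at least 2 UMIs of Gzma and Gzmk together, and none of Havcr2. In replicates 1, 2, 3 and 4, 97, 135, 345 and 266 cells met this rule, 843 of 27423 barcodes in all. The values of the rule's own genes chose the cells and are given as a description only. Within each library the members were set against the other CD8 cells with at most 3 CD62L antibody counts, called the other CD62L-low CD8 cells, of which there were 357, 446, 623 and 597. The members themselves were not selected on CD62L. CD8 cells that met the granzyme criterion but held Havcr2 mRNA, called the Havcr2-positive counterparts, numbered 24, 20, 109 and 90.

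Granzymes are serine proteases of cytotoxic granules that enter target cells with the help of the pore-forming protein perforin, encoded by Prf1. Granzyme A and granzyme K are both tryptases, and their genes are neighbours on mouse chromosome 13, with Gzma at 113093824 to 113100981 and Gzmk at 113171630 to 113180965 in RefSeq's GRCm38.p6 annotation. Havcr2 encodes TIM-3, an inhibitory receptor of terminally differentiated, chronically stimulated T cells, while the transcription factor TCF-1 (Tcf7) and the receptor Slamf6 mark the self-renewing cells that give rise to them. In NOD mice, CD8 T cells that recognise β cell proteins enter the islets and kill insulin-producing cells, and many receptors specific for the islet protein IGRP use TRAV16 joined to TRAJ42.

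Some of the largest clones of members carried near-identical receptors in different replicates, so their CDR3 sequences, the receptor stretches that contact peptide, are shown here as read in the libraries. In the first pair, both clones joined TRAV16N to TRAJ37 and TRBV3 to TRBJ1-2, and their TRA CDR3 was the same at every base. The TRA locus lies on chromosome 14 and the TRB locus on chromosome 6. The clone of replicate 1 had 36 CD8 cells, 11 of them members, and the clone of replicate 4 had 66, 33 of them members. Their TRB CDR3s differed at 5 bases and 1 residue, and the differing bases are in capitals:
Both clones, TRA: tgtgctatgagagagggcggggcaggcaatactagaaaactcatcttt
Replicate 1, TRB: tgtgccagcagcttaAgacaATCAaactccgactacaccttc
Replicate 4, TRB: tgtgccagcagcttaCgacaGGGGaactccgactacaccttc

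In the second pair, both clones joined TRAV5-4 to TRAJ50 and TRBV16 to TRBJ1-4, and they encoded the same peptides from different bases. The cells with these chains in replicate 3 numbered 158, 82 of them members, and those in replicate 4 numbered 23, 9 of them members. The TRA CDR3s differed at 1 base and the TRB CDR3s at 2 bases, again in capitals:
Replicate 3, TRA: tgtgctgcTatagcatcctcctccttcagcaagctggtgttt
Replicate 4, TRA: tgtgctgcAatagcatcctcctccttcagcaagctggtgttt
Replicate 3, TRB: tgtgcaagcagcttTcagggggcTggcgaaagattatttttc
Replicate 4, TRB: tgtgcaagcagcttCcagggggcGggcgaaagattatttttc

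Another receptor joined TRAV16N to TRAJ42 and TRBV13-3 to TRBJ2-4. It was read with the same bases in both chains in replicates 3 and 4. These were 20 CD8 cells of replicate 3, 8 of them members, and 22 of replicate 4, 5 of them members. A second form of the same peptides, with 1 other TRA base, was also read in both replicates. It was in 15 cells of replicate 3, 4 of them members, and in 20 of replicate 4, 6 of them members. Barcodes were compared for the first form only, printed here, and none was in common (0 of 20 and 22):
Replicates 3 and 4, TRA: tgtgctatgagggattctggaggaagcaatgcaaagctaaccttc
Replicates 3 and 4, TRB: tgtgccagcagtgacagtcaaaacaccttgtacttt

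The libraries held 6175, 4136, 8718 and 8394 barcodes in replicates 1 to 4, and 1209, 770, 1401 and 1252 passed the CD8 gate. Members had a median of 7040, 5760, 5794 and 5916 UMIs per cell, against 4627, 4773, 2424 and 3331 in the other CD62L-low CD8 cells. A rule that asks for 2 granzyme UMIs can select deeper cells. The comparisons across genes were therefore also made with cells thinned to 1000 UMIs after they were chosen. Those with the other CD62L-low CD8 cells, with and without Havcr2, were also made with cells thinned before the rule was applied. Thinning before the rule left 20, 29, 81 and 68 members. CD62L-low members that then fell below 2 granzyme UMIs counted as comparison cells, so this setting differs in more than depth. The other CD62L-low CD8 cells of replicates 3 and 4 held many cells with fewer than 20 counts of CD11a, the LFA-1 α chain carried by activated T cells. These made up 0%, 0.741%, 8.70% and 3.01% of members, against 3.64%, 5.38%, 45.1% and 31.7% of the other CD62L-low CD8 cells. Likely doublets, with 2 or more TRB chains or at least 2 UMIs of B cell genes, made up 27.8%, 19.3%, 20% and 15.8% of members and 29.1%, 26.7%, 25.4% and 23.3% of the other CD62L-low CD8 cells. Pairs of libraries shared 36 to 102 barcodes, among them at most 4 members of any library.

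As a measure of free RNA in droplets, cells with at least 2 granzyme UMIs were counted in the CD8 gate and in cell types that should lack these genes. Such cells made up 10.01%, 20.1%, 32.4% and 28.4% of the CD8 gate, with a median depth of 4723, 5101.5, 4435 and 3883 UMIs. They made up 0.956%, 2.23%, 3.76% and 3.13% of CD62L-high CD4 cells, with a median of 3780, 4391.5, 3947 and 3228.5 UMIs. In B cells the share was 0%, 0%, 0.331% and 0%, of 416, 177, 302 and 251 cells, with an exact 95% upper limit of 0.883%, 2.06%, 1.83% and 1.46% that covers counting error only.

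All 843 members had a Cd3 UMI. The markers that the rule did not use were present in most members or in a large minority of them, which describes the label without testing it. Ccl5, a chemokine of effector and memory CD8 cells, was detected in 87.6%, 93.3%, 95.7% and 95.1% of members, against 34.7%, 45.3%, 76.6% and 69.8% of the other CD62L-low CD8 cells. Ctla2a was detected in 59.8%, 78.5%, 66.4% and 77.1% of members, against 10.6%, 25.1%, 33.4% and 33.3%. Hopx was detected in 39.2%, 55.6%, 44.1% and 39.1% of members, against 8.40%, 12.6%, 13.0% and 14.9%. Detection was counted in unthinned cells, and members were deeper in each library. Ctla2a was not among the cytotoxic genes called below against all the other CD62L-low CD8 cells. Within clones, also below, it was called higher in members, by 0.61 on the log2 scale (edgeR adjusted p 0.0126). The data go only part of the way with the label effector cells: members also held Tcf7, Slamf6 and Il7r, genes of stem-like and memory T cells, at the levels given below, and they are called Gzma/Gzmk cells here.

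Gzma/Gzmk cells made up 8.02%, 17.5%, 24.6% and 21.2% of the CD8 gate, a mean of 17.9% ± 7.17 (SD, n = 4). The share was lowest in replicate 1. It was 25.4% on average with a threshold of 1 granzyme UMI, 13.4% with 3 UMIs, and 4.80% when cells were thinned to 1000 UMIs before the rule was applied. At the edge of the rule, the cells just outside, with 1 granzyme UMI, numbered 33, 47, 151 and 131, and 42.9%, 71.0%, 78.5% and 62% of them with a paired receptor belonged to clones of at least 2 CD8 cells. The cells just inside, with 2 UMIs, numbered 17, 43, 86 and 59, and 61.5%, 67.6%, 80.8% and 74.1% were in such clones. In cells with no granzyme UMI the clonal share was 17.0%, 29.9%, 23.9% and 19.9%.

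Gzmk defined nearly all of the Gzma/Gzmk cells. Gzmk was detected in 833 of them and Gzma in 118. There were 725 cells with Gzmk alone, 108 with both and 10 with Gzma alone, 3, 3, 1 and 3 of them in replicates 1 to 4. Gzmk UMIs were spread over the cells, with a median of 4 and a maximum of 41 per cell. Gzma UMIs were concentrated: 32 cells with at least 10 UMIs held 81.0% of all 1212 Gzma UMIs, and the highest cell had 96. The share of Gzma-positive cells was 21.6% in replicate 1 and 12.6%, 12.8% and 13.5% in the others.

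**Figure D1:**
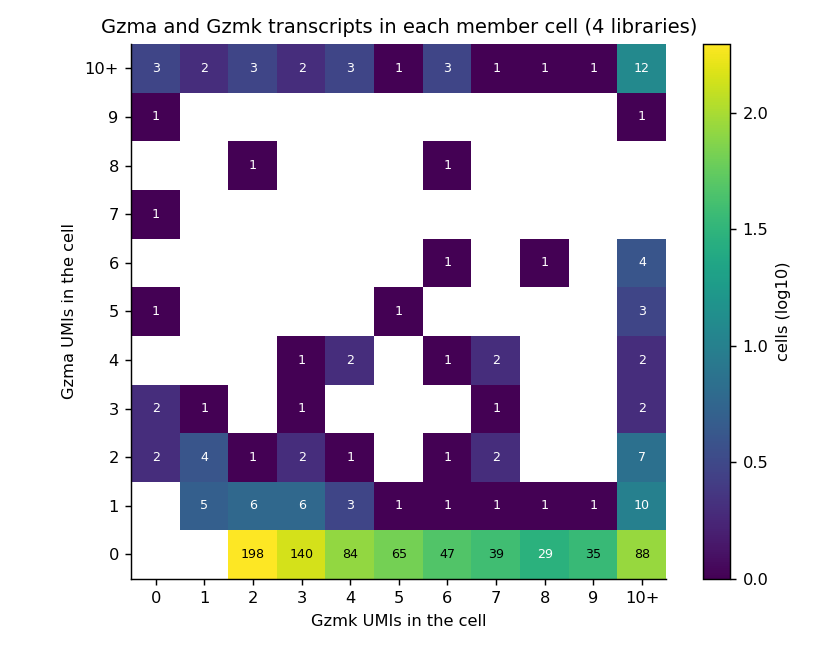
Gzma UMIs (vertical axis) against Gzmk UMIs (horizontal axis) in each of the 843 Gzma/Gzmk cells, with counts of 10 or more in the last bin. The colour gives the log10 number of cells. Most cells lie in the row without Gzma, and the 10 cells with Gzma alone lie in the column without Gzmk.

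The 10 cells with Gzma alone were too few to test, and their values are given one by one. In replicate 1 they held 2, 3 and 17 Gzma UMIs and 47, 1 and 25 Ccl5 UMIs. In replicate 2 they held 2, 7 and 25 Gzma UMIs and 33, 56 and 58 Ccl5 UMIs. The cell of replicate 3 had 3 Gzma UMIs and 66 Ccl5 UMIs, and 39 CD62L counts, well above the threshold. In replicate 4 they held 5, 9 and 23 Gzma UMIs and 24, 4 and 121 Ccl5 UMIs. CD11a counts in the 10 cells lay between 106 and 346. Of the 8 with a paired receptor, 5 belonged to clones of 2 to 11 CD8 cells.

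Gzma/Gzmk cells were mostly clonal, and their clones also held cells outside the rule. A clonotype was 1 TRB and 1 or 2 TRA nucleotide CDR3s, and a clone was called expanded when at least 2 CD8 cells of the library carried it. Both chains needed for a clonotype were sequenced in 84.5%, 68.1%, 71.9% and 72.9% of members, against 69.5%, 66.6%, 43.7% and 46.9% of the other CD62L-low CD8 cells. Members held 25, 19, 36 and 31 of the 51, 41, 50 and 41 expanded CD8 clones. Only 8, 1, 11 and 5 of these were made up of members alone. Of the members with a paired receptor, 42.7%, 51.1%, 63.3% and 70.1% were in clones that also held other CD62L-low CD8 cells. Clones were also shared with the Havcr2-positive counterparts: 62.5%, 70%, 75% and 62.5% of the clones of the counterparts held a member, and 10%, 13.2%, 13.2% and 14.7% of members' clones held a counterpart.

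**Figure D2:**
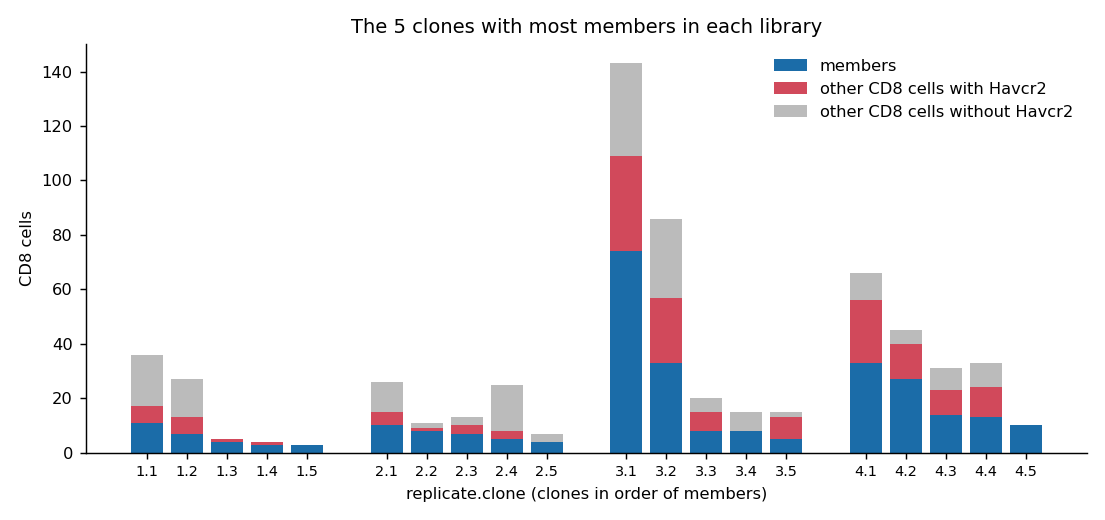
Number of CD8 cells (vertical axis) in the 5 clones with the most members of each replicate (horizontal axis, replicate and clone number). The bars stack members, other CD8 cells with Havcr2 and other CD8 cells without it. The first clone of replicate 3 held 143 cells, 74 of them members, and most of the clones shown mix members with other cells.

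The first clone took 13.4%, 10.9%, 29.8% and 17.0% of members with a paired receptor, and the first 5 clones took 34.1%, 37.0%, 51.6% and 50%. In replicate 3, 3 clones shared 1 TRB sequence of TRBV16 and TRBJ1-4. The first paired it with 2 TRA chains, TRAV6N-7 with TRAJ53 and TRAV5-4 with TRAJ50, and had 143 cells and 74 members. The other 2 carried 1 of these TRA chains each, with 86 cells and 33 members, and with 15 cells and 8 members. In all, whatever their TRA, 260 CD8 cells of replicate 3 with exactly 1 TRB carried this TRB. Of these, 119 were members, 42.8% of the 278 members of replicate 3 with 1 TRB, and 60 had Havcr2. The TRB and one of the TRA chains are those printed above for replicate 3. In replicate 4 the first clone, also printed above, had 66 cells, of which 33 were members and 23 had Havcr2.

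Receptors with a TRAV16 family segment and TRAJ42, the pairing of many IGRP-specific cells, were present in members and in other cells. They were read in 1, 6, 16 and 28 members of 82, 92, 248 and 194, and in 3, 10, 45 and 53 of the 248, 297, 272 and 280 other CD62L-low CD8 cells with a paired receptor. Among them was the receptor read with the same bases in replicates 3 and 4 that is printed above. Of the 278 distinct pairs of CDR3 peptides in members, 2 were found in more than 1 library. They were carried by 114 of the 616 members with a paired receptor. Antigen specificity was not measured.

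Per library, members were more often clonal, more often CD62L-low and richer in CD11a than their comparators, in 4 of 4 libraries for each measure. With 4 pairs, an exact two-sided permutation test over the signs of the differences cannot give a p below 0.125, so none of the 4 measures could pass 0.05, and p-values were adjusted over these 4. Expanded clones held 69.5%, 63.0%, 77.8% and 80.9% of members, against 41.9%, 47.5%, 71.0% and 65.7% of the other CD62L-low CD8 cells. The means were 72.8% ± 8.11 and 56.5% ± 14.0 (SD, n = 4), with an exact permutation p of 0.125 and an adjusted p of 0.167. The ranges overlap, since replicate 3 of the other cells lies above replicates 1 and 2 of the members. CD62L-low cells made up 57.7%, 86.7%, 59.4% and 82.3% of members, against 32.1%, 70.2%, 59.0% and 60.5% of all other CD8 cells. The difference was 16.1 percentage points on average and 0.424 in replicate 3, with an exact permutation p of 0.125 and an adjusted p of 0.167.

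The median CD11a count was 419, 281, 332 and 347 in members, against 149, 159.5, 51 and 147 in the other CD62L-low CD8 cells. All 4 member values lie above all 4 comparator values, a mean difference of 218 counts with an exact permutation p of 0.125 and an adjusted p of 0.167. Among cells with at least 20 CD11a counts the medians were 419, 282.5, 349 and 353.5 in members, against 158.5, 177, 271 and 294. Members stayed higher in each library, by 126 on average, but the ranges overlap. Cells with at least 2 UMIs over 22 cycling genes, counted after thinning to 1000 UMIs, made up 46.4%, 38.5%, 53.2% and 58.9% of members, against 32.2%, 32.0%, 58.6% and 49.3% of the other CD62L-low CD8 cells. Members were higher in 3 of 4 libraries, with an exact permutation p of 0.25 and an adjusted p of 0.25, and replicate 3 went the other way. On a stricter list of 11 mitosis and S phase genes, the shares were 22.7%, 15.6%, 23.0% and 34.0% of members, against 8.47%, 6.44%, 30.5% and 19.0%, with replicate 3 again the exception. On the list of 22 genes, the Havcr2-positive counterparts stood at 75%, 65%, 81.7% and 72.2%.

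**Figure D3:**
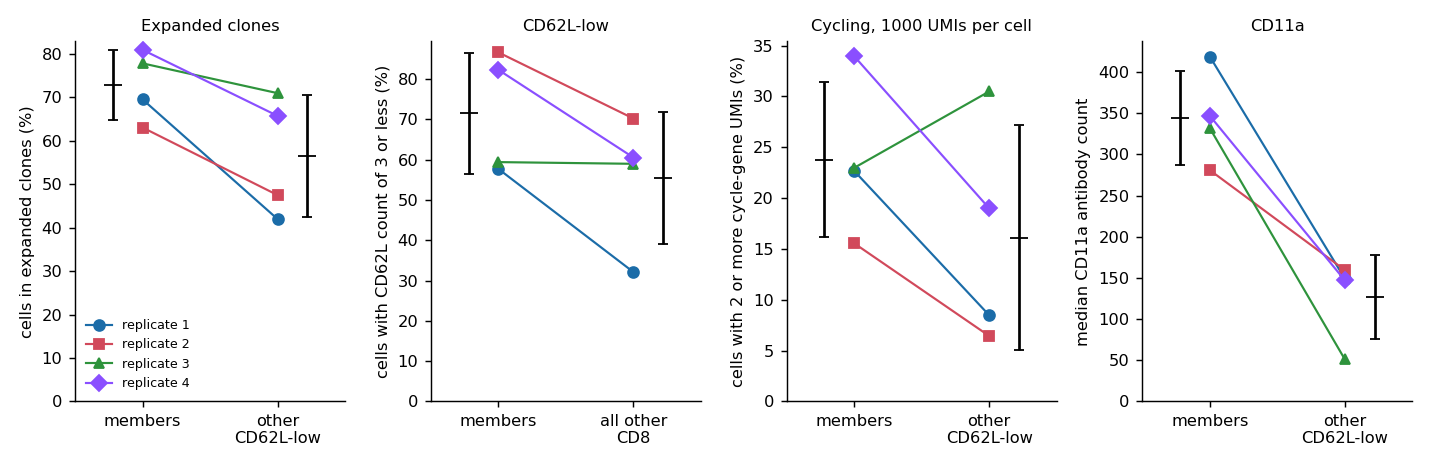
Per-library measures of members (left of each panel) and of their comparator (right), joined by a line for each replicate. The vertical axes give the percentage of cells in expanded clones, of CD62L-low cells and of cells cycling by the stricter list of 11 genes, and the median CD11a antibody count, with the mean ± SD of 4 libraries at the sides. CD11a separates the groups fully, while the share of cycling cells is lower in members in replicate 3 alone.

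Set against the other CD62L-low CD8 cells, Gzma/Gzmk cells had more Gzmm, Klrk1, Ccr2 and Gpr183 mRNA and less Ccr9, Itgae, Igfbp4 and Tnfsf8 mRNA. UMI counts were summed per group and library and tested in edgeR with the library as a block, and p-values were adjusted over all genes by the Benjamini-Hochberg method. Levels below are CPM, the gene's UMIs per 1000000 UMIs of the group's cells in a library, and fold changes are log2 estimates of the fit. Of 10355 genes tested, 181 were higher (1.75%) and 270 lower (2.61%) in members, 4.36% in either direction. Such counts include the rule's own genes where they passed, as Havcr2 did here. With members limited to CD62L-low cells, 167 were higher and 282 lower. Calls in either direction numbered 162 without replicate 2, 1106 without replicate 3, 146 without replicate 4 and 46 without the library block. Of the 13 cytotoxic genes tested, none of them used by the rule, Gzmm, Nkg7 and Serpinb6b were higher and none lower. The list had a median log2 difference of 0.28, against -0.002 over all genes.

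Gzmm, a further granzyme gene, had 25.6, 20.03, 15.8 and 8.71 CPM in members, against 3.51, 5.38, 4.98 and 2.48 in the other CD62L-low CD8 cells. The groups did not overlap, and the log2 difference was 2.02 ± 0.26 (SE, edgeR adjusted p 9.29e-05). Klrg1, a receptor of differentiated effector cells, had 12.3, 16.0, 21.2 and 26.1 in members, against 3.12, 2.02, 11.5 and 7.43 (log2 difference 1.63 ± 0.27, edgeR adjusted p 0.00155). All 4 member values were higher than all comparator values, and the edgeR adjusted p was 0.056 without replicate 4. Nkg7, a granule membrane protein, had 1763, 1805, 2104 and 2139 in members, against 1122, 1252, 1624 and 2039. It was higher in each library by 0.41 ± 0.08 on the log2 scale (edgeR adjusted p 0.0076), although the ranges overlap, and the call was lost without replicate 2 or 3. Klrk1, which encodes the activating receptor NKG2D, was higher by 0.70 ± 0.10 (edgeR adjusted p 0.000428). Tbx21, the transcription factor T-bet, was higher by 0.52 ± 0.11 (edgeR adjusted p 0.00736) and, like Cxcr3 below, was not called without replicate 2 or 4. Of 8 killer lectin-like receptors tested, Klrg1 and Klrk1 were higher and none lower (median 0.72), and of 4 NK cell genes tested none was called in either direction (median -1.12). The summed level of all 7 listed NK cell genes went the other way, higher in members of each library. It was 582, 673.6, 805.5 and 952.6 CPM in members, against 397, 416.6, 730.4 and 771, and was not tested. The difference of Gzmb was 0.08 and that of Prf1 0.06, with edgeR adjusted p of 0.9 and 0.834.

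Among receptors for migration, Ccr2, a receptor for inflammatory chemokines, had 72.3, 75.3, 80.6 and 96.2 CPM in members, against 16.8, 27.6, 43.0 and 49.5 in the other CD62L-low CD8 cells. No value overlapped, and the log2 difference was 1.25 ± 0.16 (edgeR adjusted p 0.000691). Gpr183, a receptor for oxysterols, had 59.1, 77.7, 67.3 and 39.8 in members, against 19.1, 25.2, 30.4 and 16.4 (1.40 ± 0.13, edgeR adjusted p 2.75e-06). Its groups did not overlap either, but the difference was 0.77 with an edgeR adjusted p of 0.763 when cells were thinned before the rule was applied. Cxcr3, a receptor of effector T cells, was higher by 0.44 ± 0.09 (edgeR adjusted p 0.00585). Ccr9, a gut homing receptor, had 2.65, 4.00, 4.74 and 0.379 in members, against 54.7, 44.1, 28.0 and 21.7. It was lower in members of each library, by -3.46 ± 0.29 on the log2 scale (edgeR adjusted p 8.53e-06). Of the 12 chemokine receptors tested, 3 were higher and 3 lower.

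Itgae encodes CD103, an integrin of tissue-resident and naive CD8 cells, and had 39.7, 20.8, 12.0 and 10.2 CPM in members, against 115.6, 98.9, 39.6 and 54.8 in the other CD62L-low CD8 cells (-1.94 ± 0.15, edgeR adjusted p 1.54e-07). Replicate 1 of the members only just reached replicate 3 of the other cells, and each library showed the same direction. Igfbp4, a gene of naive T cells, had 0.882, 3.20, 3.16 and 3.41 in members, against 104.2, 90.9, 37.2 and 50.5 (-4.31 ± 0.25, edgeR adjusted p 1.43e-07). Tnfsf8, which encodes the CD30 ligand, had 6.17, 8.81, 2.84 and 4.92 in members, against 48.8, 52.8, 22.8 and 31.9 (-2.78 ± 0.19, edgeR adjusted p 5.47e-08). Bach2, a repressor of effector differentiation, was lower by -1.68 ± 0.23 (edgeR adjusted p 0.00284) and Satb1, a chromatin organiser of naive cells, by -1.02 ± 0.11 (edgeR adjusted p 3.5e-05). Lag3, an inhibitory receptor, had 128.7, 160.2, 221.1 and 217.4 in members, against 239.3, 272.3, 275.9 and 354.5 (-0.65 ± 0.10, edgeR adjusted p 0.000557). With 1 cell per clonotype the difference in Lag3 was -0.21 (edgeR adjusted p 0.38). Tcf7, at -0.16 (edgeR adjusted p 0.497), and Slamf6, at -0.02 (edgeR adjusted p 0.949), did not pass.

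Of 22 cycling genes, 6 were higher and none lower in members, with a median log2 difference of 0.46. Of 15 genes of recent receptor stimulation, 4 were lower and none higher (median -0.43), and of 17 stemness and memory genes, 2 were higher and 4 lower (median -0.20). Of 16 actin and S100 genes, which include S100a10 at 0.59 ± 0.07 (edgeR adjusted p 5.64e-05), 5 were higher and none lower (median 0.37). Without replicate 3, all 22 cycling genes were higher, 8 genes of recent stimulation were lower, and 3 stemness and memory genes were higher and 11 lower. Islet and macrophage transcripts also stood in the comparison: the summed endocrine genes ranged from 2.64 to 54.6 CPM in members and from 4.29 to 946.7 in the other CD62L-low CD8 cells, highest in replicate 3. The summed myeloid genes ranged from 145 to 163.2 and from 152.7 to 356.8, and CD4 genes from 84.1 to 172 and from 159.7 to 246.7. Their part in the results was not tested. Of the 67 named genes called, 53 were still tested when cells were thinned before the rule was applied. Of these 53, 12 were called and 50 kept their direction. That fit had only 20, 29, 81 and 68 members, and its comparator took in former members.

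The comparison changed when the 5.60%, 7.40%, 17.8% and 19.4% of comparator cells with Havcr2 were left out, so that both groups lacked this gene. The other CD62L-low CD8 cells without Havcr2 numbered 337, 413, 512 and 481. Against them, 1631 of 10043 genes were higher (16.2%) and 1314 lower (13.1%) in Gzma/Gzmk cells, 29.3% in either direction. The median depth of these comparator cells was 4473, 4645, 1684.5 and 2785 UMIs, below that of members in each library. All 22 cycling genes were higher (median log2 difference 1.29, against -0.009 over all genes), 12 of 17 stemness and memory genes were lower and 1 higher (median -0.46), and 8 of 13 cytotoxic genes were higher and 1 lower (median 0.72).

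Mki67, a gene of dividing cells, had 634, 467.8, 625.7 and 740.9 CPM in members, against 254.5, 210.4, 204.8 and 229.3 in the other CD62L-low CD8 cells without Havcr2 (1.46 ± 0.08, edgeR adjusted p 6.34e-09). These levels did not overlap, but the share of cycling cells did not differ in this way in replicate 3. In cells thinned to 1000 UMIs, the share by the 22 genes was 46.39%, 38.52%, 53.20% and 58.87% of members, against 29.64%, 29.35%, 53.16% and 44.06% of these comparator cells. By the stricter 11 genes it was 22.7%, 15.6%, 23.0% and 34.0% of members, against 5.39%, 3.98%, 25.1% and 12.1%, lower in members in replicate 3. Tcf7 had 212.5, 289.2, 191.4 and 176.9 in members, against 354.9, 382.3, 358.1 and 319.5 (-0.71 ± 0.07, edgeR adjusted p 1.65e-09), also without overlap. Lef1, its relative, had 117.3, 129, 127.9 and 98.1, against 432.2, 392.4, 356.9 and 262.9 (-1.57 ± 0.08, edgeR adjusted p 8.58e-18). Il7r, the survival receptor of memory cells, had 75.0, 117.7, 100.8 and 66.7, against 189, 188.4, 143.3 and 152.9 (-0.89 ± 0.13, edgeR adjusted p 0.000744). Fasl, a death ligand, had 37.9, 47.3, 48.0 and 51.1, against 9.95, 9.22, 11.7 and 20.9 (1.84 ± 0.17, edgeR adjusted p 4.52e-11). Prdm1, the regulator Blimp-1, was higher by 1.48 ± 0.16 (edgeR adjusted p 3.68e-09) and Prf1 by 0.40 ± 0.11 (edgeR adjusted p 0.00476), a call lost without replicate 3 or 4. Gzmb had 86.4, 39.2, 61.9 and 111.7 in members, against 0.452, 3.21, 14.6 and 25.0, without overlap but with an edgeR adjusted p of 0.0575.

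The counts were smaller in thinned cells and without dividing cells. With cells thinned before the rule, 20, 29, 81 and 68 members were set against 378, 494, 582 and 542 comparator cells, former members included. In that setting 73 genes were called, and 1 of 22 cycling genes was higher (median 0.16), none of them lower. There Gzmb passed (2.57, edgeR adjusted p 5.9e-10), as did Nkg7 (0.77, edgeR adjusted p 7.07e-06), and Tcf7 did not (-0.63, edgeR adjusted p 0.211). With cells of the strict cycling list left out of both groups, the difference of Tcf7 was -0.17 (edgeR adjusted p 0.22). That of Mki67 was 0.44 (edgeR adjusted p 0.54). Mki67 is itself on this list and helped choose the cells left out, so its value in this setting is not a result. The difference of Il7r there was 0.05, of the opposite sign (edgeR adjusted p 0.885), and it was -0.31 with 1 cell per clonotype (edgeR adjusted p 0.521).

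Members and their Havcr2-positive counterparts shared the granzyme criterion and differed in stemness and cycling genes, with Tcf7, Id3 and Il7r many-fold higher in members. Since Havcr2 chose the groups, its own difference is not a result. Of 8923 genes tested, 513 were higher (5.75%) and 398 lower (4.46%) in members, 10.2% in either direction. Of 17 stemness and memory genes, 13 were higher and 1 lower (median log2 difference 0.90, against 0.005 over all genes), and of 11 recirculation genes, 6 were higher and none lower (median 0.29). These lists share genes, Klf2 among them. Of 22 cycling genes, 17 were lower and none higher (median -0.58), and of 18 exhaustion genes, 7 were lower and none higher (median -0.34). The counterparts were deeper, with a median of 16744, 13217.5, 16365 and 9995.5 UMIs per cell, and numbered only 20 to 109 cells in a library. Without replicate 3, 393 genes were called in either direction.

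Tcf7 had 212.5, 289.2, 191.4 and 176.9 CPM in members, against 22.6, 5.46, 8.57 and 6.82 in the Havcr2-positive counterparts. The groups stood far apart, with a log2 difference of 4.42 ± 0.20 (edgeR adjusted p 1.32e-18). Slamf6 had 142.9, 179.4, 157.3 and 135.2 in members, against 32.7, 68.3, 48.5 and 49.5 (1.63 ± 0.14, edgeR adjusted p 2.46e-11). Id3, a transcriptional regulator of memory precursors, had 87.3, 75.3, 50.5 and 47.4 in members, against 2.52, 0, 1.63 and 4.27 (4.55 ± 0.31, edgeR adjusted p 1.19e-14). Il7r had 75.0, 117.7, 100.8 and 66.7 in members, against 5.03, 35.5, 5.71 and 1.71 (3.59 ± 0.41, edgeR adjusted p 0.00137). Neither Id3 nor Il7r overlapped between the groups. Cxcr5, the B cell follicle homing receptor, had 22.0, 24.8, 24.6 and 12.9 in members, against 0, 2.73, 2.86 and 0 (3.56 ± 0.44, edgeR adjusted p 1.28e-07). The neuronal gene Nsg2 had 99.7, 179.4, 128.2 and 83.3 in members, against 5.03, 0, 4.08 and 1.71 (5.20 ± 0.26, edgeR adjusted p 1.68e-19). Klf2 and S1pr1, which drive exit from tissues, were higher by 0.87 ± 0.11 (edgeR adjusted p 4.15e-07) and 0.83 ± 0.16 (edgeR adjusted p 0.00036).

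In the other direction, Gzmb had 86.4, 39.2, 61.9 and 111.7 CPM in members, against 405.1, 199.3, 157.1 and 325.9 in the counterparts (-1.76 ± 0.14, edgeR adjusted p 9.05e-10). All member values lay below all counterpart values. Entpd1, the ectoenzyme CD39, had 39.7, 20.8, 40.8 and 51.9 in members, against 95.6, 109.2, 89.4 and 127.1 (-1.39 ± 0.16, edgeR adjusted p 1.28e-07). Prdm1 had 29.98, 24.8, 55.9 and 55.7 in members, against 62.9, 95.6, 120 and 125.4 (-1.24 ± 0.15, edgeR adjusted p 1.7e-07). Both were free of overlap. Pdcd1, which encodes PD-1, had 167.6, 145.8, 154.8 and 177.3 in members, against 417.6, 248.5, 213 and 209.8 (-0.65 ± 0.13, edgeR adjusted p 0.00205). Ctla4 was lower by -0.996 ± 0.21 (edgeR adjusted p 0.0245) and Tnfrsf9, the receptor 4-1BB, by -0.88 ± 0.13 (edgeR adjusted p 5.85e-06). The chemokine Xcl1 was higher, at 792.8, 603.2, 293.8 and 372.4 in members, against 535.9, 297.7, 148.1 and 129.7 (1.03 ± 0.12, edgeR adjusted p 2.45e-07), with overlapping ranges. Prf1, at -0.42, had an edgeR adjusted p of 0.0594, and Tox, the exhaustion regulator, had a difference of 0.10 and was not called.

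**Figure D4:**
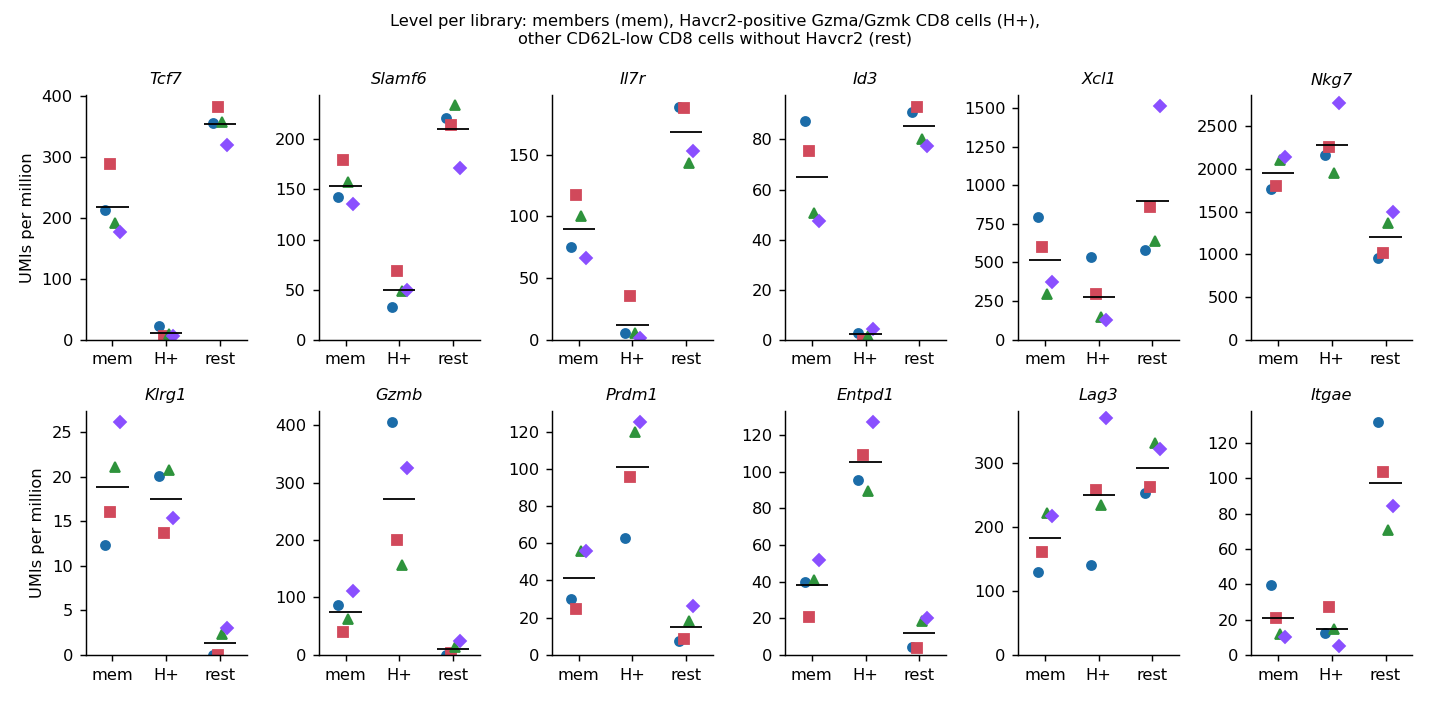
CPM (UMIs per 1000000 UMIs, vertical axes) of selected genes in each library for members, their Havcr2-positive counterparts and the other CD62L-low CD8 cells without Havcr2, with a circle, square, triangle and diamond for replicates 1 to 4 and a line at the mean. Tcf7 in members lies between 176.9 and 289.2, above the counterparts at 5.46 to 22.6 and below the other cells at 319.5 to 382.3.

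In the thinned cells, 45 of the 72 named genes of this comparison were tested, 30 were called, and all 45 kept their direction. Without the library block, Gzmb, Pdcd1, Ctla4 and Xcl1 were not called. B cell and pancreatic acinar transcripts also differed: of 5 B cell genes 2 were higher in members, with summed levels of 171.9 to 571.4 in members and 27.3 to 174.8 in counterparts, and of 3 acinar genes 2 were higher, with sums of 18.2 to 257.1, highest in replicate 2, and 5.03 to 34.1. Their part in the other differences was not tested.

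Gzma/Gzmk cells with more than 3 CD62L antibody counts had higher levels of recirculation and memory genes than CD62L-low ones. They numbered 41, 18, 140 and 47, against 56, 117, 205 and 219, and replicate 2 was left out of the fit for too few cells. Of 8669 genes tested, 72 were higher (0.831%) and 6 lower (0.0692%) in CD62L-high members, 0.9% in either direction. Of 17 stemness and memory genes 8 were higher and none lower, with a median of 0.81, against 0.001 over all genes, and 3 of 11 recirculation genes were higher. The lists overlap, and Ccr7 and Klf2 count in both.

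Il7r had 131, 260.6, 132.9 and 120.6 CPM in CD62L-high members, against 48.2, 96, 78.5 and 57.8 in CD62L-low members (1.06 ± 0.19, edgeR adjusted p 0.00248). Klf2 had 485.9, 666.6, 487.6 and 587 in CD62L-high members, against 377.8, 439.4, 280 and 281.5 (0.78 ± 0.13, edgeR adjusted p 0.00185). Ccr7, a lymph node homing receptor, had 111.9, 145.4, 64.1 and 40.2 in CD62L-high members, against 26.1, 26.8, 24.6 and 24.3 (1.45 ± 0.25, edgeR adjusted p 0.00198). All values of each gene were higher in CD62L-high members, replicate 2 included. Sox4, a transcription factor of lymphocyte development, had 71.0, 0, 8.5 and 26.8 in CD62L-high members, against 2.60, 0.923, 0.534 and 0.882 (4.57 ± 0.57, edgeR adjusted p 1.85e-05). It was high in the 3 libraries tested and listed at 0 in replicate 2. The chemokine Cxcl10 was lower, with 2.73, 12.1, 2.32 and 2.68, against 49.5, 57.2, 16.0 and 21.6 (-3.14 ± 0.50, edgeR adjusted p 0.000754). Tcf7 had 316.7, 339.3, 202.4 and 270.7, against 162.8, 281.5, 183.8 and 161.5, higher in each library, with a difference of 0.62 ± 0.16 and an edgeR adjusted p of 0.0587.

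B cell transcripts moved with CD62L: 5 of 7 B cell genes were higher, their summed level was 388, 879, 1265 and 399 CPM in CD62L-high members and 69.0, 140, 91.9 and 333 in CD62L-low members, and likely doublets made up 39.0%, 38.9%, 27.9% and 27.7% against 19.6%, 16.2%, 14.6% and 13.2%. Without likely doublets, 71 of 7749 genes were higher and 36 lower, and of 17 stemness and memory genes 6 were higher and none lower. Expanded clones held 59.4%, 16.7%, 63.3% and 48.6% of CD62L-high members, against 76%, 70%, 87.3% and 88.1% of CD62L-low members, lower in each library. With 1 cell per clonotype, 1 stemness and memory gene was higher, and the difference was -0.16 for Il7r and 0.01 for Klf2. Without replicate 3, 234 genes were called in all, and without replicate 4, 8 genes, none of them from this list. Sox4 was called in each setting, and Il7r, Klf2, Ccr7 and Cxcl10 were not called without replicate 4.

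Members were also set against other CD62L-low CD8 cells of the same clones. Cells were summed over all such clones of a library and not paired by clone, so the mix of clones could still differ between the groups. There were 35, 47, 157 and 136 members in such clones, against 79, 80, 171 and 166 other cells, which included cells with Havcr2. Of 9118 genes tested, 13 were higher (0.143%) and 26 lower (0.285%) in members, 0.428% in either direction. The genes that were lower included Itgae, Cd200, Nrp1, Cd226 and Tnfrsf9. Of 10 tissue residence genes tested 1 was lower and of 14 genes of recent receptor stimulation 2, and the cycling genes gave no call (0 of 22 in either direction, median log2 difference 0.19).

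Itgae had 43.8, 22.1, 7.66 and 8.63 scaled CPM in members, against 97.4, 45.8, 17.3 and 38.3 in the other cells of their clones (-1.39 ± 0.21, edgeR adjusted p 0.00318). It was lower in each library, as it was when clones were ignored. Cd200, a ligand of an inhibitory receptor, had 105.2, 104.1, 53.6 and 59.9 in members, against 182.8, 213.9, 83.4 and 125.4 (-0.88 ± 0.12, edgeR adjusted p 0.0012). Tnfrsf9, which stimulated T cells induce, had 150.5, 93.1, 83.7 and 77.1 in members, against 176.2, 204.3, 156.5 and 186.6 (-0.90 ± 0.14, edgeR adjusted p 0.00976), with no overlap. Nrp1, a co-receptor for semaphorins, was lower by -1.51 ± 0.22 (edgeR adjusted p 0.00196), and Cd226, an activating receptor, by -1.09 ± 0.16 (edgeR adjusted p 0.00196). Gpr183 was higher, with 45.3, 42.6, 49.0 and 35.5 in members, against 18.6, 33.0, 26.3 and 11.2 (1.03 ± 0.20, edgeR adjusted p 0.0255), and its groups did not overlap. Lag3 and Pdcd1 were lower in 4 of 4 libraries and were not called, and Tcf7 was lower in 2 and higher in 2. A fit without the library as a block called no gene by edgeR, with 379 at an unadjusted p under 0.05, and DESeq2's Wald test with the block called 18. With the block, edgeR called 13 genes without replicate 2, 157 without replicate 3 and 13 without replicate 4. The calls of Gpr183 (without replicate 1, 2 or 4), Tnfrsf9 (without 2 or 4) and Itgae (without 4) were among those lost.

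Within the Gzma/Gzmk cells, those with Gzma had more Gzmb, Lgals3 and Klrg1 and less Xcl1, Tox and Pdcd1 mRNA than those with Gzmk alone. They numbered 21, 17, 44 and 36, against 76, 118, 301 and 230. For the first group 1 Gzma UMI was enough, while the second had at least 2 Gzmk UMIs and no Gzma. Median depth was 11566, 4797, 8597.5 and 6141.5 UMIs, against 6753.5, 5770, 5614 and 5784.5. The choice of cells rests on Gzma and Gzmk, so their differences are not results, although both are in the fit and Gzma is among the genes counted as higher. Of 8107 genes, 27 were higher (0.333%) and 42 lower (0.518%) in Gzma-positive cells, 0.851% in either direction. Of 16 exhaustion genes 7 were lower and none higher (median log2 difference -0.89, against -0.014 over all genes), and of 16 actin and S100 genes 7 were higher and none lower (median 0.63). Of 22 cycling genes none was called in either direction (median 0.31).

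Gzmb had 194.1, 228.5, 152.3 and 369.9 CPM in Gzma-positive cells, against 34.1, 21.1, 36.8 and 72.8 in Gzmk-only cells (2.47 ± 0.20, edgeR adjusted p 1.46e-06). No value overlapped. Lgals3, which encodes galectin-3, had 382.8, 265.1, 319.1 and 445, against 95.7, 94.8, 88.4 and 94.6 (1.94 ± 0.17, edgeR adjusted p 2.5e-06). Klrg1 had 16.2, 82.3, 58.0 and 49.1, against 10.5, 9.66, 10.9 and 22.7 (1.86 ± 0.34, edgeR adjusted p 0.0123), with the smallest gap in replicate 1 and overlapping ranges. Rasgrp2, an activator of the integrin switch Rap1, had 272.3, 274.3, 275.6 and 352.6, against 129.7, 129.9, 132.5 and 109 (1.25 ± 0.17, edgeR adjusted p 0.000712). Klf2 was higher by 0.78 ± 0.16 (edgeR adjusted p 0.0202), and S1pr1, at 1.25 ± 0.27, had an edgeR adjusted p of 0.057.

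Xcl1, a chemokine for cross-presenting dendritic cells, had 86.3, 64.0, 17.4 and 75.1 CPM in Gzma-positive cells, against 1136, 654.9, 370.7 and 417.2 in Gzmk-only cells (-3.45 ± 0.24, edgeR adjusted p 4.25e-07), far apart in each library. Tox had 169.8, 210.3, 200.2 and 211, against 390.6, 343.3, 426.8 and 340.5 (-0.93 ± 0.16, edgeR adjusted p 0.00553). Pdcd1 had 132.1, 45.7, 84.1 and 72.2, against 184.8, 155.4, 174.4 and 193.1 (-1.03 ± 0.20, edgeR adjusted p 0.0175). Tcf7 had 142.9, 164.6, 63.8 and 121.4, against 246.4, 301.1, 226.9 and 185.3 (-1.03 ± 0.20, edgeR adjusted p 0.0159). None of these 3 genes overlapped between the groups. Lag3 was lower by -1.09 ± 0.22 (edgeR adjusted p 0.0234), in 3 of 4 libraries, and was higher in replicate 2. Prf1, Nkg7, Ifng, Eomes, Slamf6 and Il7r had differences between -0.59 and 0.13 and were not called.

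**Figure D5:**
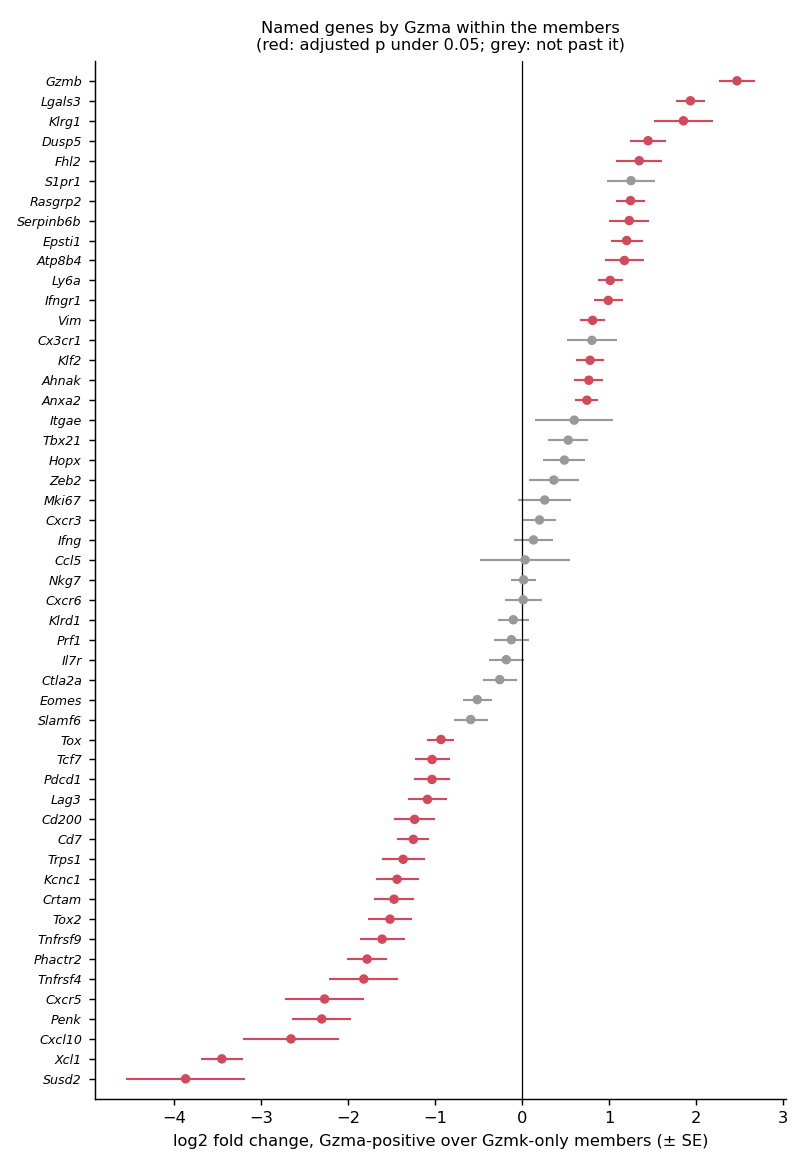
Log2 difference (horizontal axis) with its standard error between Gzma-positive and Gzmk-only cells for the named genes. Red marks an edgeR adjusted p under 0.05 and grey the rest. Gzmb lies at 2.47 and Xcl1 at -3.45.

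Gzma-positive cells held more likely doublets, 38.1%, 35.3%, 36.4% and 27.8%, against 25%, 16.9%, 17.6% and 13.9% of Gzmk-only cells, and without them 55 genes were called, with 5 exhaustion genes lower and 1 higher of 15. Without each replicate in turn, 37, 156, 15 and 12 genes were called in all. On the exhaustion list, without replicates 1, 2, 3 and 4 in turn, 1, 8, 0 and 2 of its genes were lower, and Tcf7, Pdcd1, Tox and Lag3 were not called without replicate 3 or 4, nor Tcf7, Tox and Lag3 without replicate 1. Klrg1 and Klf2 were not called without replicate 3 or 4, and Rasgrp2 not without replicate 4. Gzmb and Xcl1 kept their calls in each of these settings and lost them only in the fit without the library as a block, with edgeR adjusted p of 0.0604 and 0.114. Clones were shared between the 2 kinds of cells: 37.5%, 28.6%, 38.1% and 36.8% of the clones of Gzma-positive cells also held Gzmk-only cells, and 15%, 4.17%, 10.3% and 12.5% of the clones of Gzmk-only cells held Gzma-positive cells.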

How the data were processed

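The deposited mRNA matrices give unnormalised UMI counts for each gene and for 4 antibodies, written by Cell Ranger 4.0.0 per the file headers. The submitters' processing notes name mm10 and Seurat without a role. The receptor tables hold the authors' assembled contigs with UMI and read counts. The sources used here do not give the software behind them. Antibody counts were read from the mRNA matrices.

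UMI counts were summed per group and library and tested with edgeR 4.0.16 in R 4.3.3: low genes were left out by filterByExpr, libraries were scaled by TMM, the quasi-likelihood fit was robust, and adjustment followed Benjamini and Hochberg. Groups compared come from the same library, so the library was a block. Deviations of paired groups correlated by 0.0352 to 0.408. SEs were derived from the F statistic. DESeq2 1.42.0 was an alternative. A group needed 20 cells in a library, or 10 for Gzma-positive cells. Named genes were, in each direction, the 10 called genes with the smallest p that moved at least 2-fold and the same way in every library, up to 4 called members of each list, and a fixed set of T cell genes. Levels are CPM without TMM scaling, except for the comparison within clones. Clones were matched on CDR3 bases within a library. The fits were tested on simulated data at an adjusted p under 0.05. Of simulated 2-fold changes, 58.6% (by Gzma) to 84.5% (against the comparator without Havcr2) were called. False calls made up 2.47% (by CD62L) to 10% (against the other CD62L-low CD8 cells) of calls. Alternatives are given in the closing section. Intervals cover counting error only. The members and lists were chosen with earlier results of these data known. Gzma-only cells were too few for the tests planned for them. A gene is not reported here and is in no list.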

Additional observations from a re-analysis of the deposited data

Results flagged for a closer look

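In groups of 4 libraries, 178 measures were checked for a library that stood apart from the other 3, and 13 did. Chance alone gives about 1 in 20, so these are listed as values only. Replicate 1 of the members had the highest median depth, 7040 UMIs per cell, the highest share of Gzma-positive cells, 21.65%, and the lowest Eomes level, 258.4 CPM. Replicate 2 of the members had the highest Cxcr3 level, 189.8 CPM.

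Among Gzma-positive cells, replicate 1 was lowest in Gzmk with 315.4 CPM, replicate 2 was highest in Ifng with 210.3 CPM, and replicate 3 had the largest share of cells with at least 2 TRB chains, 11.36%. Among Gzmk-only cells, replicate 4 was highest in Klrg1 with 22.67 CPM, and replicate 2 was lowest in Cxcr6 with 141.3 CPM. Among the Havcr2-positive counterparts, replicate 1 was highest in Hopx with 88.06 CPM, and replicate 2 was lowest in Zeb2 with 21.85 CPM.

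Among the other CD62L-low CD8 cells, replicate 3 had the lowest median CD11a count, 51. Among those without Havcr2, replicate 2 had the smallest share of cells with at least 2 TRB chains, 2.179%. The causes of these values were not tested.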

How the results depend on the processing

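The number of genes called moved with most settings, and the cause was not tested. For members against the other CD62L-low CD8 cells, with 451 calls, it was 677 with 1 cell per clonotype, 175 in cells thinned to 1000 UMIs, 43 with the granzyme rule applied to thinned cells, 731 with at least 3 granzyme UMIs, 292 in cells with a Cd3 UMI and at least 20 CD11a counts, 811 without cells of the strict cycling list and 254 without likely doublets. It was 2945 against comparison cells without Havcr2 and 2937 against those without Gzma, Gzmk or Havcr2. It was 878 without the low-count filter and 159 with DESeq2's Wald test, and it ran from 146 to 1106 with a replicate left out. Against the comparator without Havcr2, with 2945 calls, it was 1302 with 1 cell per clonotype, 448 in thinned cells, 73 with the rule on thinned cells, 979 without the strict cycling cells and 1349 with the Wald test. Leaving out a replicate gave 2174 to 2715.

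For members against the Havcr2-positive counterparts, with 911 calls, it was 227 in thinned cells, 344 with the Wald test and 393 to 1000 with a replicate left out. For CD62L-high against CD62L-low members, with 78 calls, it was 12 with 1 cell per clonotype, 37 in thinned cells, 251 without the filter, 26 without strict cycling cells, 12 with the Wald test, and 8 to 234 with a replicate left out, when 2 libraries remained. Within clones, with 39 calls, it was 21 in thinned cells, 138 without the filter, 17 without strict cycling cells, 18 with the Wald test and 13 to 157 with a replicate left out. For Gzma-positive against Gzmk-only cells, with 69 calls, it was 18 in thinned cells, 166 without the filter, 40 without strict cycling cells, 40 with the Wald test and 12 to 156 with a replicate left out. The mean member share was 25.38% with 1 granzyme UMI and 4.797% in thinned cells.

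Without the library as a replicate block, calls were 46 against the other CD62L-low CD8 cells, 1824 against those without Havcr2, 542 against the counterparts, 37 by CD62L, 0 within clones (edgeR, with 379 at an unadjusted p under 0.05) and 29 by Gzma.

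Some called genes changed sign. Against the comparator without Havcr2, Tnf had a log2 difference of 0.0172 with 1 cell per clonotype, and Slamf6 0.1008 and Tnf 0.0745 in thinned cells. With the rule on thinned cells it was -0.01698 for H2afz, -0.09401 for Tuba1b, -0.4791 for Ccna2, 0.2737 for Cd55, 0.4286 for Slamf1 and -0.03501 for Klre1. Without strict cycling cells it was -0.46 for Tuba1b, 0.04603 for Slamf6, 0.02141 for Egr1 and 0.05465 for Il7r. It was -0.3621 for Top2a, which is on the strict list, so its own counts helped choose the cells. Against all other CD62L-low CD8 cells, it was -0.4024 for Kcnc1, 0.3915 for Slamf1 and -0.3514 for Tk1 with the rule on thinned cells, and 0.4282 for Cxcr6, not called before, without strict cycling cells. By CD62L, Il7r came to -0.1598 and Ly6a to -0.0588 with 1 cell per clonotype, Cd74 to -2.071 without likely doublets, and Gzmb to -1.395, Gzma to -2.321 and Nkg7 to -0.4487, none of them called before, without strict cycling cells. The other changes of called genes were 260, 164, 120, 76, 131 and 105 lost calls with the sign kept, and 878, 936, 188, 127, 243 and 509 kept calls, over genes and settings, for the comparisons with the other CD62L-low CD8 cells, with those without Havcr2, by CD62L, within clones, by Gzma and with the counterparts.

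The rule on thinned cells, the strict cycling list and every setting of the comparisons without Havcr2, with the counterparts, within clones and by Gzma were chosen after seeing the data. Not run for too few cells were all tests of Gzmk-only against Gzma-only cells, fits without cells of the 22-gene cycling list, the CD62L-high threshold of 10 counts, 1 cell per clonotype within clones and for the counterparts, and the counterparts without doublets or strict cycling cells. Depth limits low genes: the counterparts and Gzma-positive cells had as few as 20 and 17 cells in a library.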

Other observations

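Some genes listed as markers of other cell types stood highest in 1 replicate. Trdc, the constant segment of the γδ receptor, had 55.6, 3.20, 0 and 0 CPM in members of replicates 1 to 4, against 4.29, 2.36, 0.524 and 3.71 in the other CD62L-low CD8 cells, although the cells were sorted on the αβ receptor. The cells compared within clones all held a sequenced αβ receptor. Among them, Trdc had 90.6 scaled CPM in members of replicate 1, against 8.76 in the other cells. Ncr1, a receptor of NK cells, had 7.05, 0, 0.316 and 0 CPM in members, against 0, 1.68, 0.262 and 0. Both were highest in members of replicate 1. Ctrb1, an acinar enzyme, had 5.29, 82.5, 13.3 and 3.41 CPM in members, against 5.08, 35.7, 13.4 and 4.95, highest in replicate 2 of both groups.

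Ins1, an insulin gene, had 0, 0.801, 13.9 and 0.379 CPM in members, against 1.56, 3.70, 282.4 and 4.03 in the other CD62L-low CD8 cells. Lyz2, a lysozyme gene of macrophages, had 0.882, 0.801, 1.26 and 1.14 CPM in members, against 6.25, 0.337, 100.9 and 5.57. Both stood highest in the other cells of replicate 3, the group with a median CD11a count of 51.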
